A study of Homo sapiens with 6 samples.

Results

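Human mitochondrial DNA encodes 37 genes, all with symbols that start with MT-, and the deposited transcript tables listed each of them: 13 coding genes, 2 ribosomal RNA (rRNA) genes and 22 transfer RNA (tRNA) genes, of 60607 genes in all. They were chosen by that symbol alone. Their RNA was measured in PLC/PRF/5, an established line of human hepatocellular carcinoma, by sequencing of 3 knockdown libraries made 48 h after transfection with siRNAs against SLU7 (siSlu7) and of 3 control libraries made 48 h after transfection with siGL2, an siRNA designed against firefly luciferase. SLU7 is a splicing factor of the second catalytic step. All 6 libraries came from the same line, and the labels call the libraries of each group triplicates without saying whether they were separate cultures, so p-values measure the spread between these libraries, which may be technical.

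Mitochondrial DNA is transcribed from a promoter on each strand into long RNAs that cover nearly the whole circle. Most coding and rRNA sequences in these RNAs are flanked by tRNAs, and cutting at both ends of each tRNA, by RNase P and by the RNase Z enzyme ELAC2, releases the mature molecules. The genes carry no introns, so the nuclear spliceosome does not act on their transcripts. The coding genes specify subunits of respiratory complex I (MT-ND1 to MT-ND6 and MT-ND4L), complex III (MT-CYB), complex IV (MT-CO1 to MT-CO3) and the ATP synthase, complex V (MT-ATP6 and MT-ATP8). MT-RNR1 and MT-RNR2 give the 12S and 16S RNAs of the mitochondrial ribosome. MT-ND6 and 8 of the tRNA genes lie on the minus strand of the annotation (GRCh38, chromosome M), and the other 28 genes on the plus strand.

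SLU7 itself had 9.38, 8.30 and 10.5 counts per 1000000 (CPM, scaled by the TMM factors that edgeR derives from all genes) in the knockdown libraries, against 20.9, 17.1 and 18.4 CPM in the controls. Its log2 fold change of -1.002 passed the test applied here to every gene (edgeR quasi-likelihood test, Benjamini-Hochberg adjusted p under 0.05 over 17109 genes, adjusted p = 0.0139), although the change was -0.57 and did not pass once effective transcript length was used as an offset (adjusted p = 0.152). Total estimated counts ran between 5191452 and 6315740 in the knockdowns and between 7736584 and 8693977 in the controls. Of 8 hepatocyte markers, APOB, SERPINA1, FGB, KRT18 and HNF4A had at least 746 counts in every library and APOA1 at least 446, whereas ALB had 121 to 163 in the knockdowns and 162 to 172 in the controls. TTR, a carrier of thyroid hormone, had 20 to 28 counts in the knockdowns and 9 to 13 in the controls and rose (log2 fold change 1.54, edgeR adjusted p = 0.0243). Of the markers of other cell types, the endothelial CDH5 had 0 to 3 counts in a library, and the leukocyte gene PTPRC had 8 to 12 in the knockdowns and 3 to 4 in the controls and rose (2.01, adjusted p = 0.0223), whereas the macrophage genes CD68 and LYZ had 91 to 218 and 148 to 326. The 6 markers of other cell types summed to 53.3 to 61.3 CPM (of all estimated counts) in the knockdowns and 54.3 to 65.4 CPM in the controls, which overlapped, and their part in the results was not tested. The mean fragment length, read from the effective lengths in the files, was 142.5, 147.7 and 151.0 bases in knockdown replicates 1, 2 and 3 and 142.6, 126.5 and 122.1 bases in control replicates 1, 2 and 3. Control replicates 2 and 3 thus had the shortest fragments of the 6. Knockdown replicate 3 and control replicate 1 are called here the 2 libraries that stood apart. Their deviations from the group means correlated across genes at r = 0.44, the highest of any knockdown and control library. The next highest was 0.38, for knockdown replicate 1 and control replicate 3. Deviations within a group are tied to each other, so these values do not show that either library lay far from its own group. Without both libraries that stood apart 2482 genes passed as higher and 2766 as lower, beside 1015 and 1356 with all 6. Without control replicate 1 alone 2066 and 2391 passed, and without knockdown replicate 3 alone 433 and 610.

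Mitochondrial RNA made up a larger part of every knockdown library than of any control library, and nearly all of that difference lay in rRNA. The 37 genes together held 36.9%, 31.3% and 31.6% of the estimated counts in the knockdowns, against 23.8%, 17.9% and 25.7% in the controls. The mean share was 33.3% ± 3.18 in the knockdowns and 22.5% ± 4.09 in the controls (SD, n = 3 each), a difference of 10.8 percentage points. The 2 rRNA genes alone accounted for 10.7 of these points, with means of 31.8% ± 3.08 in the knockdowns and 21.1% ± 3.84 in the controls. The groups did not overlap for either share, and the exact two-sided permutation test gave p = 0.1 for each, the smallest value that 3 libraries against 3 allow (0.2 adjusted over 6 shares and ratios). Over the same libraries 7SL RNA, a nuclear-encoded noncoding RNA that helps to target proteins to the endoplasmic reticulum, took 8.09% to 10.6% in the knockdowns and 15.9% to 23.5% in the controls, and shares of a library are tied to each other. With 7SL RNA left out of the total, rRNA still took 38.4%, 33.7% and 33.2% in the knockdowns, against 26.9%, 21.9% and 28.6% in the controls. The difference in rRNA share was 12.3 percentage points without the 2 libraries that stood apart, and 8.499 to 12.15 with any single library left out.

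The share of the 13 coding genes differed by less than the spread between libraries. They took 1.57%, 1.16% and 1.64% of the counts in the knockdowns, against 1.32%, 1.06% and 1.61% in the controls (exact permutation p = 0.6). The difference of the means was 0.126 percentage points, and it turned to -0.01935 when 7SL RNA was left out of the total and to -0.00796 without control replicate 2. With 7SL RNA and mitochondrial rRNA both left out the share was 2.77%, 1.96% and 2.72% in the knockdowns and 2.16%, 1.78% and 2.69% in the controls, which again overlapped. In bulk RNA, a different number of mitochondrial genomes per cell and a different amount of RNA from each cannot be told apart.

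Within the mitochondrial pool, rRNA stood higher against coding RNA in the knockdown. For each count of coding RNA there were 22.5, 25.9 and 18.2 counts of rRNA in the knockdowns, against 17.1, 15.8 and 14.9 in the controls, again without overlap (mean ratio 22.2 ± 3.85 and 15.9 ± 1.07, SD, n = 3 each, exact permutation p = 0.1, 0.2 adjusted over the same 6). The difference of 6.30 was 8.86 without the 2 libraries that stood apart and 2.88 when TPM were summed in place of counts. In all 6 libraries rRNA made up the bulk of the mitochondrial counts, 94.8% to 96.3% in the knockdowns and 93.7% to 94.5% in the controls. The labels give polyA RNA as the molecule.

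**Figure D1:**
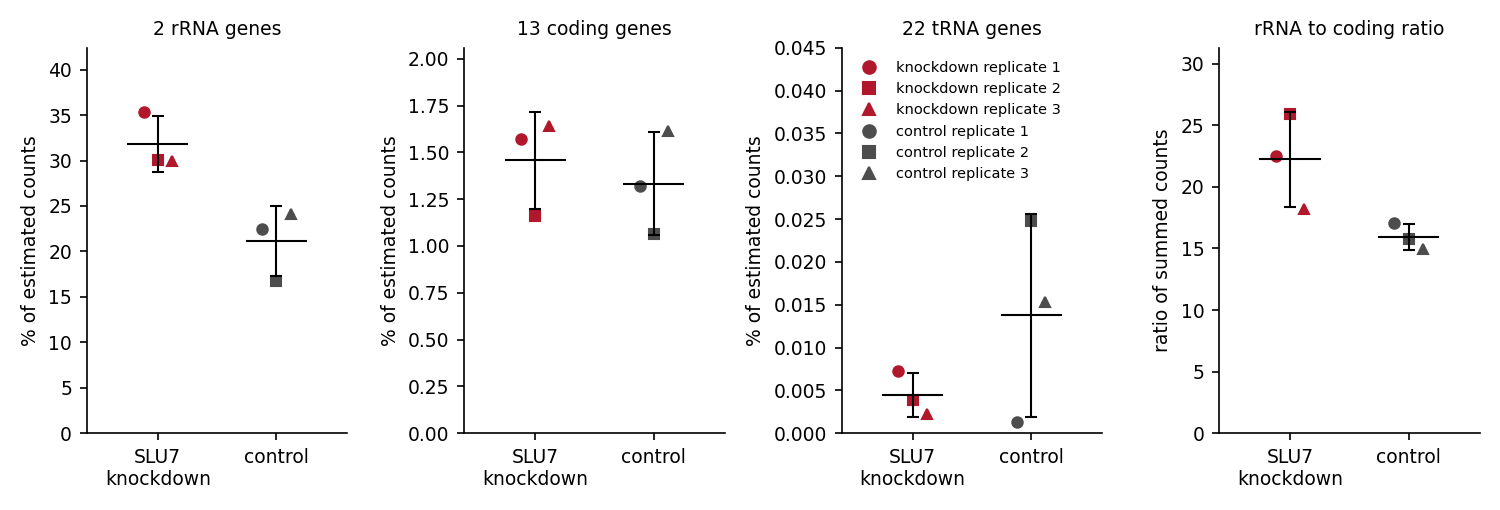
Share of each library's estimated counts (%) taken by the 2 rRNA, 13 coding and 22 tRNA genes, and the ratio of summed rRNA to summed coding counts. Points are libraries, horizontal lines are means and bars are SD (n = 3 each); every knockdown library lies above every control library for rRNA and for the ratio, but not for the coding or tRNA genes.

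Gene by gene, 25 of the 37 genes had enough counts to be tested, and MT-TE, a tRNA gene, was the only member to pass in the 6-library fit. None of the 25 passed as higher, where 5.93% of all tested genes did, and 1 passed as lower, where 7.93% of all tested genes did. Before adjustment 6 of the 25 had p under 0.05, where 32.0% of all tested genes did. DESeq2 called 3 of the 25, where it called 14.8% of all tested genes. All 13 coding genes and both rRNA genes were tested, but only 10 of the 22 tRNA genes. The CPM values of the 2 groups did not overlap in 4 of the 25, against 36.6% of all genes tested. These 4 were MT-RNR1, MT-RNR2, MT-ND5 and MT-ND6, each higher in the knockdown. Among the coding genes 11 of 13 had a positive log2 fold change and the median was 0.34, beside -0.0068 over all tested genes.

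The calls depended on single libraries. Without control replicate 1, 29 members were tested. MT-RNR1 and MT-ND6 then passed as higher, where 11.7% of all tested genes did, and 12 of 14 tested tRNA genes passed as lower, where 13.6% did. Without knockdown replicate 3 as well, 14 of 30 passed, where 29.8% of all tested genes did. MT-RNR1 and MT-ND6 were again the 2 that were higher. In both fits MT-TA, MT-TQ, MT-TS1 and MT-TS2, untested with all 6 libraries, entered through their counts in control replicates 2 and 3. These genes could hardly come out as higher, so the number of tRNA genes called cannot be read against the share of all tested genes. Leaving out any of the other 5 libraries left no member past the test, MT-TE included, in fits where 0 to 433 genes passed as higher and 0 to 610 as lower over the whole table.

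MT-RNR1, which gives the 12S RNA of the small mitochondrial ribosomal subunit (chrM:648-1601, plus strand), had 33899, 42213 and 33179 CPM in the knockdowns, against 27504, 15798 and 17649 CPM in the controls. MT-RNR2, which gives the 16S RNA of the large subunit (chrM:1671-3229, plus strand), had 309386, 245747 and 266528 CPM in the knockdowns, against 218094, 158956 and 220505 CPM in the controls. All knockdown values of both lay above all control values. The log2 fold change was 0.84 (SE 0.31, edgeR adjusted p = 0.101) for MT-RNR1 and 0.46 (SE 0.34, adjusted p = 0.394) for MT-RNR2, so neither passed. MT-RNR1 did pass with DESeq2 and with library sizes that left out mitochondrial rRNA and 7SL RNA. The 16S RNA outnumbered the 12S RNA in every library, with 9.13, 5.82 and 8.03 counts for each 12S count in the knockdowns and 7.93, 10.1 and 12.5 in the controls. These ratios overlapped (exact permutation p = 0.3).

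Within the coding pool, genes of complex I together took a larger part and MT-CO3 a smaller part in every knockdown library than in any control. The pool here is the sum of the 13 coding genes in a library, so its shares are tied to each other. The 7 complex I genes together held 23.3%, 24.3% and 23.1% of the pool in the knockdowns, against 19.0%, 18.1% and 18.4% in the controls. The means were 23.6% ± 0.610 in the knockdowns and 18.5% ± 0.447 in the controls (SD, n = 3 each), given as a description without a test. All 7 had a positive log2 fold change in the fit over all genes, between 0.026 and 0.85, although none passed. Complex IV held 53.9% to 55.7% of the pool in the knockdowns and 53.8% to 61.1% in the controls, and complex V 12.5% to 17.3% and 15.7% to 22.7%, so both overlapped.

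Of the 13 coding genes, 6 had shares of the pool that did not overlap between the groups, each at an exact permutation p of 0.1 (0.217 adjusted over 13 comparisons). Of these, MT-ND1, MT-ND2, MT-ND3, MT-ND5 and MT-ND6, all complex I genes, were higher in the knockdown. The other, MT-CO3, was lower. Shares of this pool have no counterpart over all genes. In CPM the groups did not overlap for 2 of the 13 (15.4%), where they did not for 36.6% of all tested genes. Taken as percentages of all 37 mitochondrial genes, most of whose counts are rRNA, the differences turned negative for MT-ND1, MT-ND2 and MT-ND5 (-0.00297, -4.35e-05 and -0.00261 percentage points), and 2 of the 13 coding genes had groups that did not overlap. The order of the 13 by the ratio of the 2 means ran from MT-ND6 at 1.77 to MT-CO3 at 0.693.

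MT-ND6 (chrM:14149-14673), the only coding gene on the minus strand, had the largest ratio of mean pool shares. It had 236, 222 and 369 CPM in the knockdowns, against 205, 95.8 and 157 CPM in the controls. Every knockdown lay above the highest control, control replicate 1, if narrowly for knockdown replicate 2. The log2 fold change was 0.85 (SE 0.30, edgeR adjusted p = 0.0908), and MT-ND6 passed with DESeq2, without the filter on low counts, without control replicate 1 and with library sizes that left out rRNA and 7SL RNA. Its share of the coding pool was 1.55%, 1.996% and 2.24% in the knockdowns, against 1.43%, 0.865% and 0.985% in the controls. Because the strand setting of the quantification is not given in the sources used here, reads of MT-ND6 and of RNA from the opposite strand across the same bases cannot be told apart.

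MT-ND3 (chrM:10059-10404), a small membrane subunit of complex I, had 212, 141 and 248 CPM in the knockdowns, against 122.5, 92.3 and 162 CPM in the controls. Knockdown replicate 2 lay below control replicate 3, so the CPM values overlapped, and the log2 fold change of 0.67 did not pass (SE 0.26, edgeR adjusted p = 0.119). As a share of the coding pool MT-ND3 did not overlap, with 1.39%, 1.27% and 1.51% in the knockdowns and 0.851%, 0.834% and 1.02% in the controls. MT-ND5 (chrM:12337-14148), the largest mitochondrially encoded subunit and part of the proton-pumping arm, had 881, 720 and 831 CPM in the knockdowns, against 587, 490 and 681 CPM in the controls. Its values did not overlap, and its log2 fold change was 0.47 (SE 0.19, edgeR adjusted p = 0.135).

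MT-ND1 and MT-ND2, further core subunits of the membrane arm, stood at log2 fold changes of 0.45 and 0.46 with overlapping CPM values. Their shares of the coding pool were 3.91% to 4.91% and 2.996% to 3.26% in the knockdowns, against 3.27% to 3.33% and 1.99% to 2.52% in the controls. MT-ND4 and MT-ND4L, which share a bicistronic mRNA, stood at 0.15 and 0.026. MT-ND4L ranged widely within each group, from 132 to 379 CPM in the knockdowns and from 162 to 331 CPM in the controls, and its sign turned negative without knockdown replicate 1 (-0.52) and in 4 other settings. The annotation places the last 7 bases of MT-ND4L inside MT-ND4, shown in capitals with the bases around them (plus strand, chrM:10740-10786, from the transcripts of GENCODE 29, GRCh38).
MT-ND4L/MT-ND4: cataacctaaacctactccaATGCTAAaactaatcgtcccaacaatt

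MT-CO3 and MT-ATP6 were the only coding genes with negative log2 fold changes in counts. Both were positive on the log2(TPM + 1) scale (0.042 and 0.24), but still below the median tested gene there (0.35). They are neighbours, and no tRNA lies between them: the end of MT-ATP6 and the start of MT-CO3 share a single base, in capitals below (plus strand, chrM:9187-9227). Upstream, MT-ATP8 and MT-ATP6 overlap in 46 bases, also in capitals (chrM:8517-8582), and a read within those bases can come from either gene. The sequences are shown because they mark where the files must split reads, and where RNA is not released by cutting at a tRNA.
MT-ATP6/MT-CO3: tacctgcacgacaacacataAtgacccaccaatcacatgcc
MT-ATP8/MT-ATP6: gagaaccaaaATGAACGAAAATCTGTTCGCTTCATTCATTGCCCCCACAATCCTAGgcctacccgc

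MT-CO3, a core subunit of complex IV, had 2873, 1666 and 2551 CPM in the knockdowns, against 3095, 2670 and 4087 CPM in the controls. Only knockdown replicate 1 lay within the control range, and the log2 fold change of -0.47 did not pass (SE 0.27, edgeR adjusted p = 0.269). Its share of the coding pool, 18.9%, 15.0% and 15.5% in the knockdowns against 21.5%, 24.1% and 25.6% in the controls, did not overlap. MT-ATP6, the proton channel subunit of the ATP synthase, had 2128, 1172 and 2653 CPM in the knockdowns, against 3117, 1622 and 2409 CPM in the controls. These values overlapped (log2 fold change -0.26, SE 0.34, edgeR adjusted p = 0.636), as did its shares of the pool, 10.5% to 16.1% in the knockdowns and 14.7% to 21.7% in the controls. MT-ATP8, whose product is a small membrane subunit of the same complex, had 380, 215 and 194 CPM in the knockdowns, against 154, 111 and 223 CPM in the controls. Its log2 fold change was positive and did not pass (0.70, SE 0.32, edgeR adjusted p = 0.169). The effective length of MT-ATP8, 72.6 to 87.5 bases, is below the mean fragment length of every library. Reads in the bases it shares with MT-ATP6 must also be divided, so the opposite signs of the 2 genes are uncertain. Control replicate 3 lay above knockdown replicates 2 and 3 for MT-ATP8, so its groups overlapped too.

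The remaining coding genes differed less. MT-CO1 and MT-CO2, the catalytic core of complex IV, had log2 fold changes of 0.19 and 0.24, and MT-CYB, the cytochrome b of complex III, 0.34. MT-CO1 held the largest share of the coding pool in every library, 26.1% to 31.8% in the knockdowns and 25.7% to 29.01% in the controls.

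**Figure D2:**
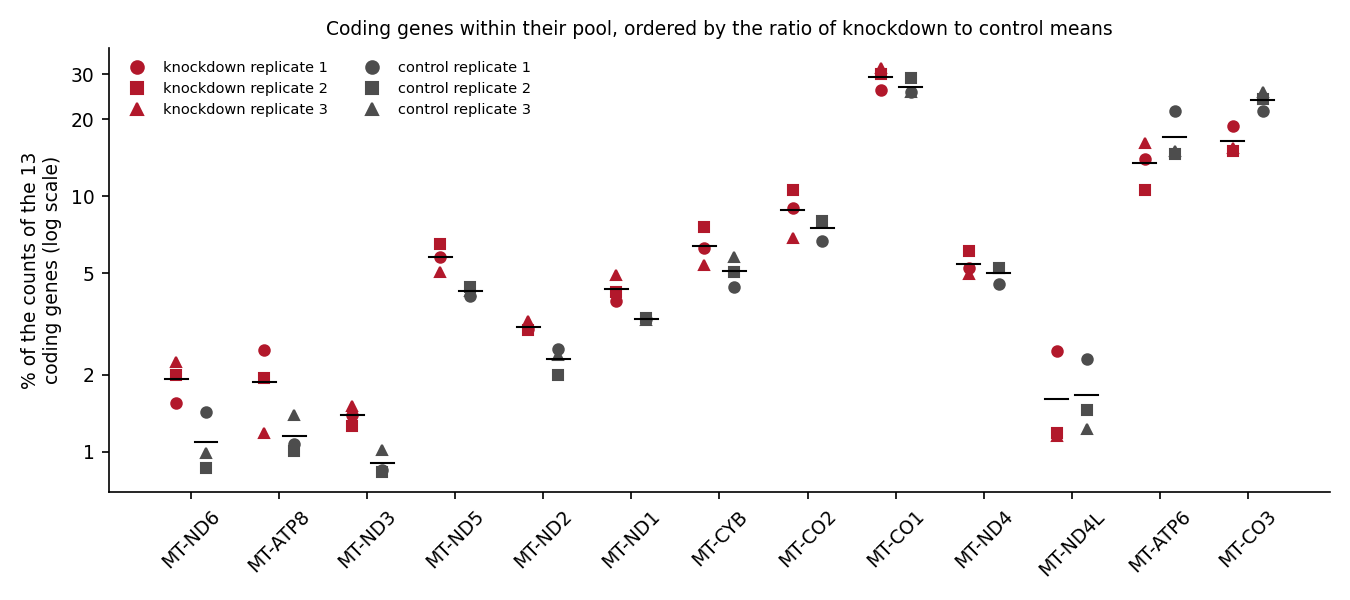
Share of each of the 13 coding genes in their summed estimated counts (%, log scale), knockdown left of control, with genes ordered by the ratio of the group means. Points are libraries and lines are means; MT-ND6, MT-ND3, MT-ND5, MT-ND2 and MT-ND1 are higher and MT-CO3 is lower in every knockdown than in any control.

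Some reads of these genes can also be assigned to nuclear copies, pieces of mitochondrial DNA that lie in the nuclear genome. The files listed 415 such copies by symbol, and together they held 0.172% to 0.325% as many counts as the mitochondrial genes in the knockdowns and 0.166% to 0.174% in the controls. The most abundant was MTATP6P1, 98.5% identical to MT-ATP6 over 681 bases, with 2538, 2105 and 4509 counts in the knockdowns and 2649, 1153 and 1916 in the controls (log2 fold change 1.15, edgeR adjusted p = 0.0699). MT-ATP6 and its copy thus differed in opposite directions, and neither passed. With the counts of both added together, the share of the coding pool was 16.1%, 13.6% and 20.2% in the knockdowns and 23.4%, 15.8% and 16.4% in the controls. MTCO1P12, 98.6% identical to MT-CO1, rose (1.30, SE 0.23, adjusted p = 0.0134) on 167, 86 and 113 counts in the knockdowns and 77, 51 and 70 in the controls. MTND1P23, 99.1% identical to MT-ND1 over 352 bases, stood at 0.92 and MTRNR2L12, 95.0% identical to MT-RNR2, at -0.12, and neither passed. Single values of such near-identical pairs are uncertain, since the quantifier divides shared reads between them.

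Set per length, the order of the coding genes was similar in both groups. Values in transcripts per 1000000 (TPM), which divide by effective length, are used here to rank genes by their mean within a group. They also set the highest coding gene against the lowest within a library. The TPM of a gene is not compared between the groups here. The reason is that the TPM of the median tested gene itself was higher by 0.35 on the log2(TPM + 1) scale in the knockdown. In both groups MT-RNR2 came first, at 119397 ± 16835 TPM in the knockdowns and 62342 ± 18897 TPM in the controls (SD, n = 3 each), and MT-RNR1 next, at 27669 ± 3173 and 10984 ± 4211 TPM. Of the coding genes MT-ATP6, MT-CO3, MT-ATP8, MT-CO1 and MT-CO2 held the first 5 places in both groups, in the knockdowns at 2292 ± 898, 2287 ± 647, 2092 ± 718, 1847 ± 443 and 1400 ± 164 TPM. The first 4 of these could not be fully ordered in the knockdowns, since no neighbour led in all 3 libraries. The place of MT-ATP8 is uncertain, since its counts are divided by an effective length of only 72.6 to 87.5 bases. MT-CO3 did lead MT-CO1 in all 3 knockdown libraries, as MT-CO1 led MT-CO2. In the controls MT-ATP6 led MT-CO1 in 3 of 3 libraries and MT-CO1 led MT-ATP8 in 3 of 3. MT-ND2 and MT-ND5 came last, at 304 ± 75.0 and 300 ± 37.3 TPM in the knockdowns and 159 ± 62.4 and 156 ± 46.8 TPM in the controls, and could not be ordered against each other in either group. These are places by the mean: in control replicates 2 and 3 the lowest coding gene was MT-ND6, at 88.2 and 193 TPM, and MT-ND6 lay above MT-ND2 in 1 of the 3 controls. The highest coding gene stood 7.79 to 9.99 times above the lowest in the knockdowns and 15.9 to 16.9 times in the controls, so the 13 levels lay closer together in every knockdown library.

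The tRNA genes were a trace of each library and followed single libraries more than the groups. Mature tRNAs of 59 to 75 bases are shorter than the mean fragment, and the effective lengths the files give them are 6.53 to 15.04 bases, and reads of a mature tRNA and of longer, uncut RNA across it cannot be told apart. Together the 22 genes held 456, 200 and 118 counts in the knockdowns, against 110, 1928 and 1183 in the controls. Control replicate 1 thus held the fewest, and control replicates 2 and 3 the most. In counts per 1000000 these are 72.2, 38.5 and 22.01 in the knockdowns and 12.7, 248 and 153 in the controls (exact permutation p = 0.4 for the shares).

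MT-TE, the tRNA for glutamate (chrM:14674-14742, minus strand), was the gene that passed. It had 11, 10 and 3 counts in the knockdowns, against 10, 344 and 161 counts in the controls. In CPM these are 1.69, 1.84 and 0.561 in the knockdowns and 1.26, 46.1 and 20.6 in the controls. Control replicate 1 lay within the knockdown range, so the groups overlapped and the call (log2 fold change -4.01, SE 1.07, edgeR adjusted p = 0.0404) rested on control replicates 2 and 3. It was lost without either of them (edgeR adjusted p = 0.123 and 0.0850), without any 1 knockdown library, and with effective-length offsets (adjusted p = 0.0626). As for MT-ND6, the strand setting is not given, so reads of MT-TE and of RNA from the opposite strand cannot be told apart.

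MT-TV, the tRNA for valine that lies between the 2 rRNA genes (chrM:1602-1670, plus strand), had 79, 40 and 14 counts in the knockdowns and 13, 720 and 302 in the controls. MT-TV held the most counts of the tRNA genes in control replicates 2 and 3, but fewer than MT-TP in knockdown replicates 1 and 3 and control replicate 1. It had a log2 fold change of -2.60 (SE 1.04, edgeR adjusted p = 0.123). The other tested tRNA genes, MT-TF, MT-TL1, MT-TM, MT-TW, MT-TN, MT-TC, MT-TY and MT-TP, had values between -0.45 and -1.85, none past the test. In 9 of the 10 tested tRNA genes all knockdowns lay below both control replicates 2 and 3, and in 6 of the 10 control replicate 1 lay below every knockdown. The sequences of the gene that passed and of the gene with the highest single count are shown with their anticodons in capitals (GENCODE 29 transcripts, 5′ to 3′).
MT-TE: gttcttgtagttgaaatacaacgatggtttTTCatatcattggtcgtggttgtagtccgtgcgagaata
MT-TV: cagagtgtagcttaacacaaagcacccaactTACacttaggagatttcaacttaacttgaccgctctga

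The 12 tRNA genes that were not tested had at most 36 counts in a library. They summed to 50, 22 and 18 counts in the knockdowns, against 8, 168 and 105 counts in the controls, so control replicates 2 and 3 were again highest. The tRNA genes annotated on the minus strand and those on the plus strand were both highest in control replicates 2 and 3. The 8 on the minus strand held 230, 103 and 71 counts in the knockdowns and 74, 790 and 548 in the controls. The 14 on the plus strand held 226, 97 and 47 in the knockdowns and 36, 1138 and 635 in the controls. Because the strand setting is not given, these counts cannot be assigned to RNA of either strand.

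Small nucleolar RNA followed the order of the tRNA counts and small nuclear RNA did not, and fragments were shortest where tRNA was highest. The 2 libraries with the most mitochondrial tRNA, control replicates 2 and 3, had the shortest mean fragments. Knockdown replicate 1 and control replicate 1, whose fragments were nearly equal in length, stood at 72.2 and 12.7 counts per 1000000 of tRNA. Small nucleolar RNA genes, which are nuclear and also short, took 0.875%, 0.482% and 0.235% of the counts in the knockdowns, against 0.210%, 1.37% and 1.05% in the controls, and the 6 libraries had the same order for these as for mitochondrial tRNA. Small nuclear RNA genes took 0.513%, 2.12% and 1.89% in the knockdowns, against 2.83%, 1.48% and 1.28% in the controls, and were highest in control replicate 1, which held the least mitochondrial tRNA. The part of fragment length in the tRNA result was not tested.

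**Figure D3:**
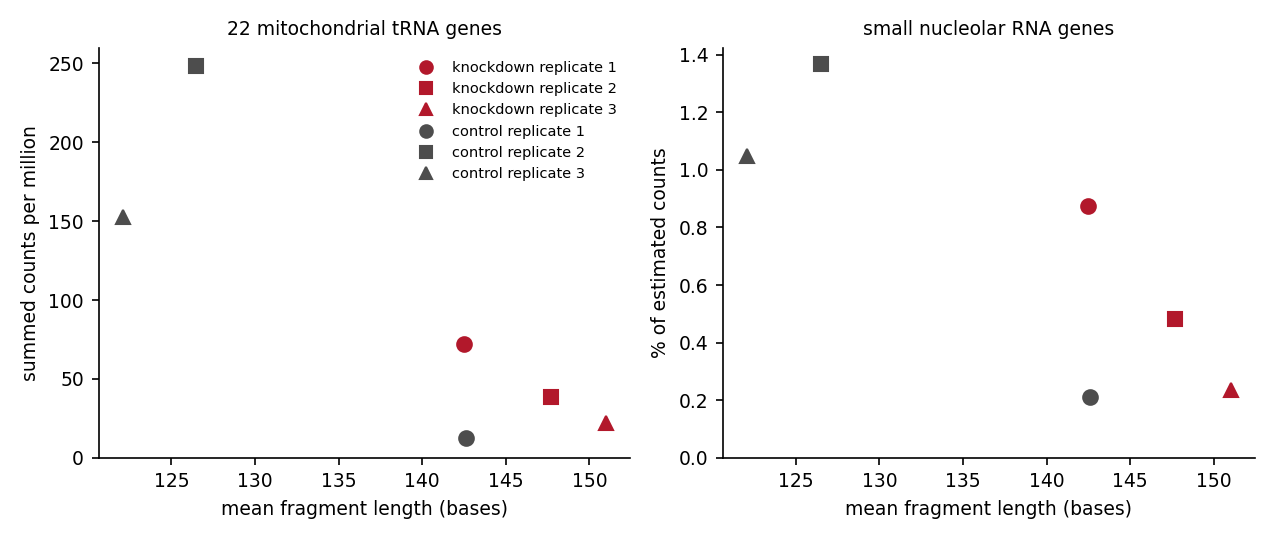
Summed CPM (of all estimated counts) of the 22 mitochondrial tRNA genes, and the share (%) of small nucleolar RNA genes, against the mean fragment length of each library in bases. Each point is a library; control replicates 2 and 3 have the shortest fragments and the highest values in both panels, and control replicate 1 the lowest.

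**Figure D4:**
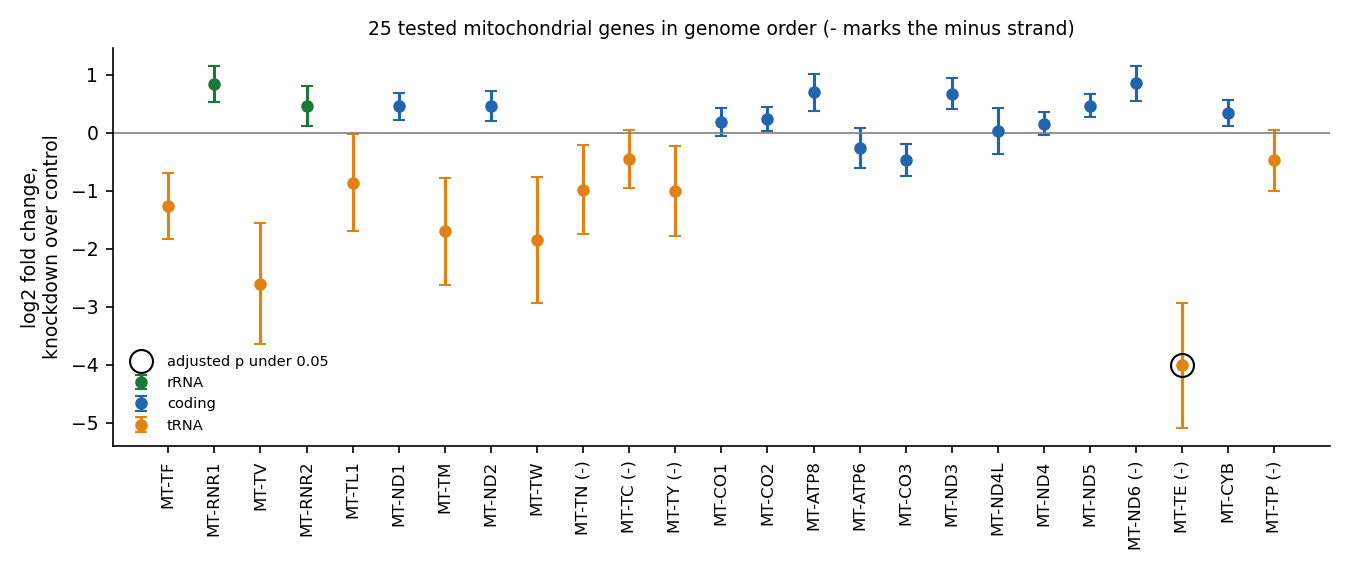
Log2 fold change, knockdown over control, of the 25 tested mitochondrial genes in genome order, with bars for the SE from edgeR over 6 libraries. Both rRNA genes and 11 of 13 coding genes lie above 0, all 10 tested tRNA genes below 0, and MT-TE is the gene that passed.

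Of 64 nuclear genes that transcribe, process and maintain the mitochondrial genome, in 5 lists and all tested, 19 passed the test. The lists were chosen with earlier results of these data known, so their counts are given as a description only. Of the 64 genes, 16 rose and 3 fell, against the 5.93% and 7.93% of all tested genes given above. The median log2 fold change was 0.46. With effective-length offsets 5 rose and none fell, in a fit where 4.91% of all tested genes passed in either direction, and the median stayed at 0.46. The count of the 64 that passed swung with the left-out library, as did the share of all tested genes. It was 2, 0 and 8 without knockdown replicates 1, 2 and 3, where 1.81%, 0.0% and 5.64% of all tested genes passed. Without control replicates 1, 2 and 3 it was 26, 2 and 3, where 25.3%, 2.61% and 3.58% of all tested genes passed.

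Of 8 genes for mitochondrial transcription, 2 rose and 1 fell (median 0.68). TFB2M, which opens the promoter for the polymerase, rose, with 12.8, 9.77 and 10.5 CPM in the knockdowns, against 4.52, 2.01 and 6.13 CPM in the controls (log2 fold change 1.38, edgeR adjusted p = 0.0353). MTERF3, of the mitochondrial transcription termination factor family, rose by 1.33 (adjusted p = 0.0251). POLRMT, the mitochondrial RNA polymerase, fell to 15.1 ± 0.564 CPM in the knockdowns, against 29.5 ± 8.08 CPM in the controls (-0.96, adjusted p = 0.0254). None of these 3 passed with effective-length offsets (adjusted p = 0.0666, 0.0690 and 0.0800).

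Of 28 genes for processing and modification of mitochondrial RNA, 7 rose and none fell (median 0.41). ELAC2, which cuts the 3′ end of tRNAs, had 47.5 ± 3.58 CPM in the knockdowns and 27.9 ± 3.50 CPM in the controls (log2 fold change 0.77, edgeR adjusted p = 0.0185), and also passed with effective-length offsets. TRMT10C, a subunit of the RNase P that cuts the 5′ end, rose by 0.80 (adjusted p = 0.0224). TRIT1, which modifies tRNAs next to the anticodon, rose by 0.77, and MRM2, a methyltransferase of the 16S RNA, by 0.70. With effective-length offsets TRMT10C, TRIT1 and MRM2 did not pass (adjusted p = 0.0606, 0.0844 and 0.126). FASTKD5, named here after its values were seen because it is needed at junctions without a tRNA such as that of MT-ATP6 and MT-CO3, rose by 0.68 (adjusted p = 0.0480), and did not pass with effective-length offsets (adjusted p = 0.104). Of 8 genes for stability and decay, MTPAP, the mitochondrial poly(A) polymerase, rose by 0.75 (adjusted p = 0.0432) and no other passed (median 0.36). MTPAP did not pass with effective-length offsets (adjusted p = 0.170).

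Of 12 genes for replication and maintenance of mitochondrial DNA, 4 rose and none fell (median 0.63). TWNK, the replicative helicase, had 48.7 ± 16.99 CPM in the knockdowns and 16.6 ± 4.47 CPM in the controls (log2 fold change 1.55, edgeR adjusted p = 0.0138), and passed with effective-length offsets. POLG and POLG2, the catalytic and accessory subunits of the mitochondrial DNA polymerase, rose by 0.63 and 0.67, and stood at 0.16 and 0.37, not past the test, with those offsets. EXOG, a mitochondrial nuclease, rose by 0.86 (adjusted p = 0.0498), but did not pass with DESeq2 (adjusted p = 0.0509), with effective-length offsets (0.0618) or without the 2 libraries that stood apart (0.0830).

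Of 8 regulators of mitochondrial biogenesis, 2 rose and 2 fell (median 0.42). PPRC1, a coactivator related to PGC-1, had 98.9 ± 4.21 CPM in the knockdowns and 55.2 ± 3.25 CPM in the controls (log2 fold change 0.84, edgeR adjusted p = 0.0102). GABPB1, a subunit of the nuclear respiratory factor GABP, rose by 1.10 (adjusted p = 0.0201). PPARGC1A, the coactivator PGC-1 alpha, fell by 0.94 on the log2 scale (adjusted p = 0.0159), and ESRRA, a nuclear receptor that works with it, fell by 1.14 (adjusted p = 0.00988). With effective-length offsets PPRC1 and GABPB1 passed and PPARGC1A and ESRRA did not.

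**Figure D5:**
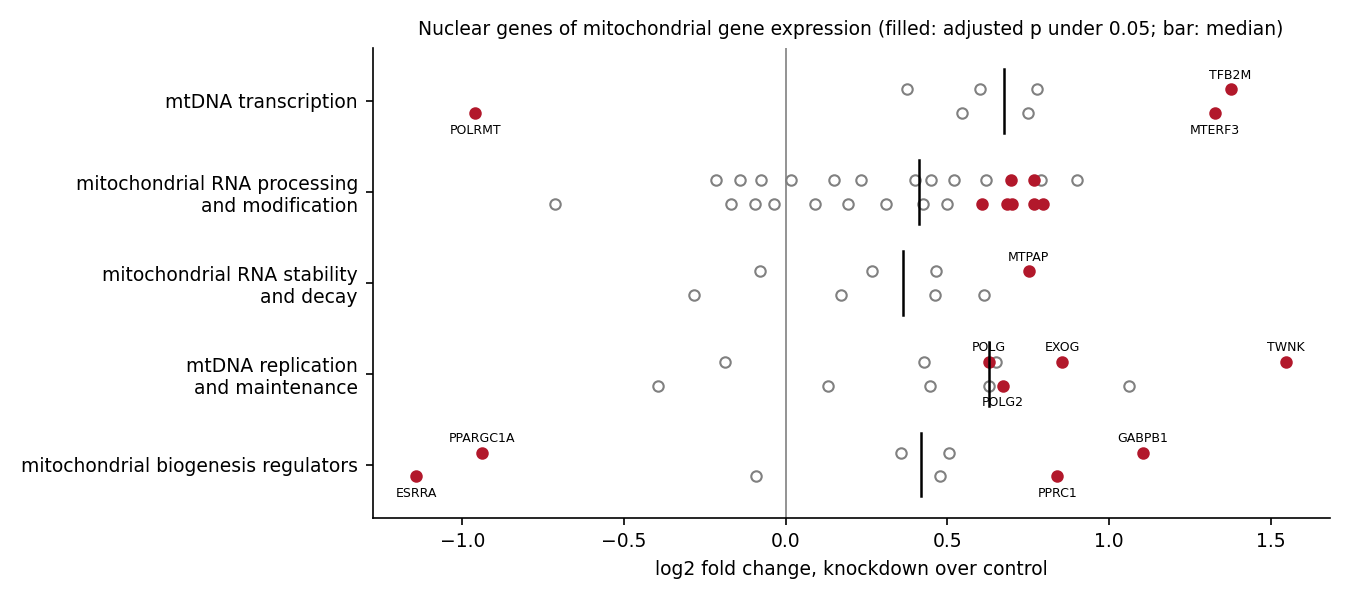
Log2 fold change, knockdown over control, of 64 nuclear genes of mitochondrial gene expression in 5 lists. Each circle is a gene, filled where it passed the edgeR test over all genes (names are given in lists with up to 5 such genes), and bars are list medians, which lie between 0.36 and 0.68.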

How the data were processed

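The members and gene lists were chosen with earlier results of these data known. Cells were lysed in TRIzol, and the polyA RNA went into ScriptSeq libraries, per the labels' protocols. The tools named per the submitters' processing notes, with no role or order, were kallisto 0.46.1, sleuth 0.30.0, Trimmomatic 0.38 and FastQC 0.11.8, beside the build GRCh38. The expected counts (estimated counts per transcript) were deposited by the authors without normalization, and the TPM values, per the file headers, divide them by effective length. Whether strand was used, and which annotation release, was not given in the sources used here. All 37 members had the gene identifiers and lengths of GENCODE 29, which gave coordinates and sequences.

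Estimated counts were summed to 60607 genes (the 159 chromosome Y records of shared regions added to X), rounded, and tested with edgeR 4.0.16 in R 4.3.3 (TMM, filterByExpr with a count of 10 and a total of 15, quasi-likelihood test over all 6 libraries, Benjamini-Hochberg adjustment at 0.05). In data simulated for this comparison with the same dispersion for every gene, 67 of 100 genes changed 2-fold and 97 of 100 changed 4-fold were called. The changed genes were drawn above a minimum mean CPM, and no simulated library stood apart. These are therefore not detection rates for the mitochondrial genes. Shares and ratios were compared by exact permutation. Mean fragment length is length less effective length plus 1, over transcripts above 3000 bases. DESeq2 1.42.0, limma 3.58.1 on log2(TPM + 1) and other scalings, filters and left-out libraries were alternatives. Members were named as all rRNA, coding and tested tRNA genes; nuclear genes as up to 4 per list past the test with the smallest p, and the 4 most abundant nuclear copies.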

Additional observations from a re-analysis of the deposited data

How the results depend on the processing

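The count of mitochondrial genes called was 1 in the reported fit and with RLE factors, total library size or a stricter filter. It was 3 with DESeq2 (14.8% of all tested genes) and with library sizes that left out mitochondrial rRNA and 7SL RNA (14.9%), 6 of 37 without a filter (8.23%), 14 of 30 without control replicate 1 and knockdown replicate 3, which stood apart (29.8%), and 0 with limma on TPM (18.3%), with effective-length offsets (chosen after seeing the data, 4.91%) and with the replicate block (0.0%). Leaving out each library in turn gave 0 to 14. Both counts of 14 include tRNA genes that entered the test only through control replicates 2 and 3. The count of nuclear machinery genes called was 31 without the 2 libraries that stood apart, 5 with effective-length offsets, 0 with the replicate block and 0 to 26 with a library left out. The deviations of same-numbered libraries correlated at -0.41, 0.11 and -0.37, so pairing by replicate number was not seen. Deviations within a group are tied to each other, so these values cannot exclude a shared culture or batch. SLU7 stood at -0.063 with limma on TPM, -0.57 with effective-length offsets, -1.004 with the replicate block and between -1.08 and -0.92 with a library left out.

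On the TPM scale, where the median gene lay higher by 0.35, log2 fold changes turned positive for MT-TL1 (0.21), MT-TC (0.053), MT-ATP6 (0.24), MT-CO3 (0.042) and MT-TP (0.32). MT-ND4L turned to -0.047 with the replicate block and -0.0041 without a filter. With a library left out, MT-ND4L ran from -0.52 to 0.39, MT-CO1 from -0.0025 to 0.33 and MT-ATP6 from -0.53 to 0.0053. The difference in coding share of the library was -0.0194 without 7SL RNA in the total, 0.465 in TPM and -0.00796 to 0.274 with a library left out. The differences in mitochondrial and rRNA share of the library were 9.24 and 9.27 percentage points without 7SL RNA in the total. In TPM they were 7.57 and 7.37. The other alternatives left out libraries or added the replicate block, which could not turn the direction of groups that did not overlap. In TPM the difference was -0.268 for the tRNA share and 2.88 for the ratio of rRNA to coding RNA.

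As percentages of all 37 genes in place of the coding pool, differences turned negative for MT-ND1 (-0.00297), MT-ND2 (-4.35e-05), MT-CO1 (-0.293), MT-CO2 (-0.0712), MT-ND4 (-0.0604), MT-ND5 (-0.00261) and MT-CYB (-0.0267), and 2 in place of 6 coding genes had groups that did not overlap. In the coding pool, leaving out libraries could only keep or raise the 6, so the numbers that follow do not bear on how firm it is. It was 10 without the 2 libraries that stood apart, as without knockdown replicate 3 alone (6 to 10 with a library left out). Without the 2 libraries that stood apart MT-ND4L stood at 0.494. With a library left out MT-ND4L ran from -0.493 to 0.266. The causes of these changes were not tested. Low tRNA counts limit what can be seen: 12 of 22 genes could not be tested.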
